A study of Homo sapiens with 6 samples.

Results

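The genes described are those of the SNARE membrane fusion machinery and its calcium sensors in A549 cells, chosen by symbol. They comprise each row of the deposited table whose symbol begins with STX (syntaxins), SYT (synaptotagmins), VAMP, CPLX (complexins) or SNAP followed directly by a digit, together with BET1, BET1L, GOSR1, GOSR2, YKT6, VTI1A and VTI1B. There were 55 such genes among the 16670 in the table. A gene was tested where its deposited value was 11 or more in at least 3 of the 6 libraries, which kept 44 of them and 13088 genes in all. That filter was the only measured value in the choice of genes, but the set was put together with earlier results of these data known.

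The RNA came from A549, an established human non-small-cell lung cancer line of epithelial origin. Every culture was first kept for 1 week with alisertib, an Aurora A kinase inhibitor, to make the cells senescent, meaning durably arrested while still metabolically active. The untreated group of 3 libraries therefore carries the alisertib exposure too and received no salinomycin, and the labels name no vehicle for it. The salinomycin group of 3 libraries received 2.5 µM salinomycin, a polyether ionophore of potassium ions, for 48 h after alisertib. The question addressed is what salinomycin changes in cells that are already senescent. Growing A549 cells without alisertib were not analysed here.

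SNARE proteins sit on vesicles and on the membranes the vesicles meet. 1 helix from an R-SNARE, such as a VAMP, winds together with Qa, Qb and Qc helices from syntaxins and their partners and pulls both membranes into contact. Different sets serve different steps, from the endoplasmic reticulum (ER) to the Golgi, between endosomes and the trans-Golgi, and at the cell surface. In regulated secretion, synaptotagmins sense calcium and complexins bind the assembled SNAREs and hold or promote the last step. NSF and its SNAP adaptors take spent complexes apart, and Sec1/Munc18 proteins and tethers such as COG and the exocyst guide assembly. Lung epithelial cells use this machinery to secrete surfactant and mucins, and neuroendocrine cells use it to release hormones.

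The deposited totals were nearly equal at 16253579 to 16366234 per library, since the values are rescaled, and say nothing of depth. Rounding steps gave estimated depths of 13540156 (untreated 3) to 19641546 (salinomycin 1) reads. Values below are normalised units, which are the deposited values less the added 1, divided by a scaling factor per library, and each list of values gives untreated libraries 1, 2 and 3 and then salinomycin libraries 1, 2 and 3. Keratin and cadherin genes checked the label of an epithelial line, with 6 of 6 epithelial markers tested and a summed level of 210310 to 238050 units in untreated and 61088 to 70542 in salinomycin libraries. That list held 1 gene that rose, KRT19, and 5 that fell, and its part in the results below was not tested. In such bulk libraries, fewer cells of a type and less RNA per cell cannot be told apart.

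Of the 44 tested genes, 25 were higher with salinomycin, 15 were lower and 4 did not pass, by limma with Benjamini-Hochberg adjustment over 13088 genes. Over all tested genes 41.6% were higher and 40.2% were lower, or 81.9% in either direction, so that being called is common in this comparison. The counts of the role groups below are to be read beside those shares. At 2-fold or more, 13 were higher and 6 were lower, against 16.8% and 18.5% of all tested genes. The 3 salinomycin libraries all lay above the 3 untreated ones for 26 of the genes and all below for 15, where 83% of all tested genes showed such separation in either direction. The median log2 change was 0.36 over the 44 genes and 0.02 over all tested genes. CPLX1, STX11, SYT5 and SYT9 reached the filter only in the salinomycin libraries and had to differ. SYT7 reached it in 1 untreated and all 3 salinomycin libraries, and was kept through the latter. The calls of these 5 genes count for nothing by themselves. Without them, 20 of 39 genes were higher, 15 were lower and the median was 0.30, and at 2-fold or more 8 of 39 were higher and 6 lower. Library-size scaling alone moved the median of all genes by 0.19 on the log2 scale. The direction of the called genes did not depend on it.

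**Figure D1:**
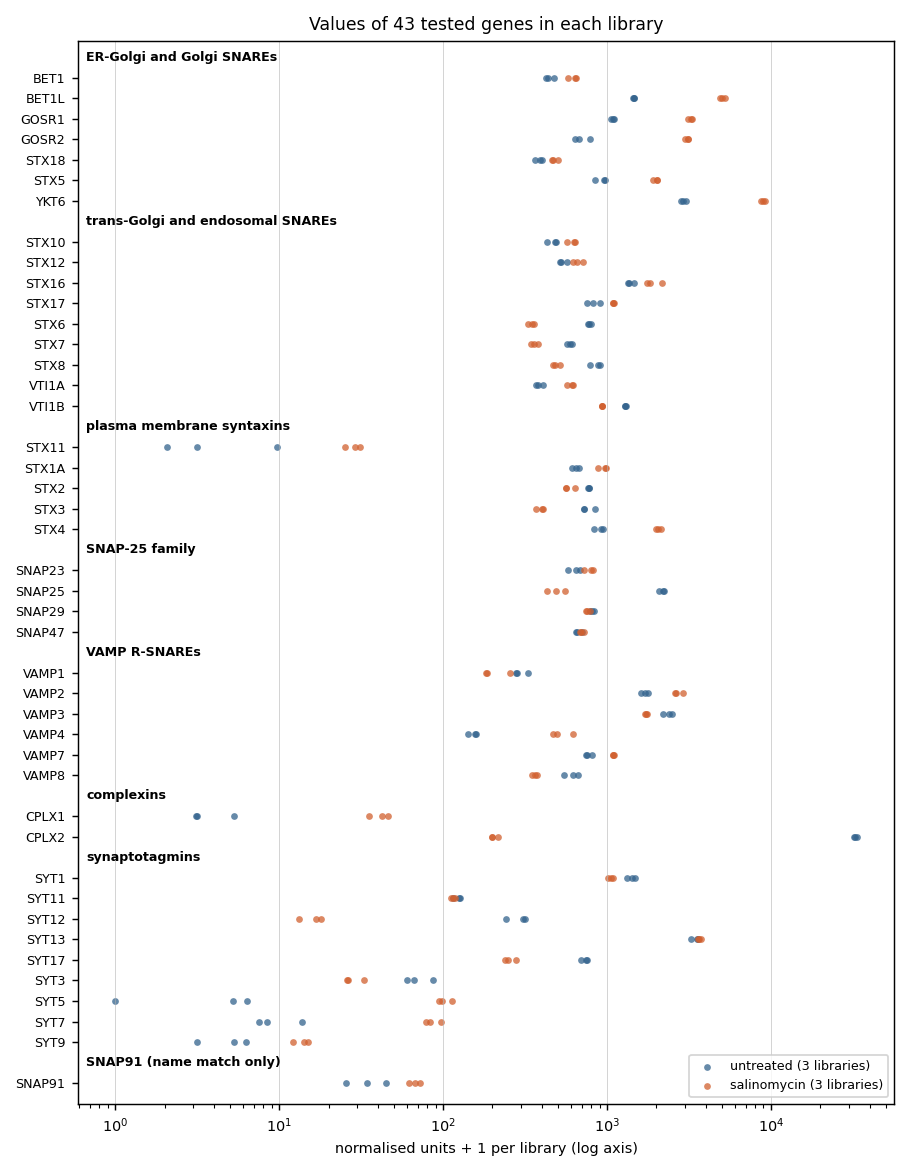
Normalised units plus 1 in each library on a log axis, 1 row per gene for 43 tested genes, grouped by role, with untreated libraries in blue and salinomycin libraries in orange. CPLX2 runs from 32755 units on average in untreated to 204 in salinomycin libraries, while all 7 ER-Golgi genes shift to the right.

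The SNAREs that act between the ER and the Golgi and within the Golgi stack rose together. All 7 passed as higher, by 1.25-fold (STX18) to 4.38-fold (GOSR2), with a median log2 change of 1.57. Their summed level was 7968, 8030 and 7707 units in the untreated and 22887, 23306 and 23777 units in the salinomycin libraries. The sum was 2.95-fold higher (7902 ± 171 against 23323 ± 446, SD, n = 3 each), with no overlap and a two-sided exact permutation p of 0.1, the smallest that 3 against 3 can give.

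GOSR2 (membrin), a Qb-SNARE that carries cargo from the ER to the Golgi, lies at chr17:46923075-46975524 on the plus strand in GENCODE 29 on GRCh38. Its values were 640, 792 and 673 units in untreated and 2993, 3106 and 3096 units in salinomycin libraries. Every salinomycin library lay far above the highest untreated one. The log2 change was 2.13 (SE 0.073, adjusted p = 1.11e-10). BET1L (chr11:167784-207428, minus strand), the Qc-SNARE of transport within the Golgi, stood at 1463, 1461 and 1448 units and rose to 4901, 5001 and 5211 units. The replicates were tight in both groups (SD 7.97 and 158 units), and the log2 change was 1.79 (SE 0.047, adjusted p = 1.37e-11).

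YKT6 (chr7:44200968-44214294, plus strand) is an R-SNARE that has a lipid anchor in place of a transmembrane helix and works at the Golgi and in autophagosome fusion. It had the highest level of the 7 in both groups. It measured 3017, 2902 and 2819 units in untreated and 8700, 8903 and 9175 units in salinomycin libraries, a log2 change of 1.62 (SE 0.048, adjusted p = 3.6e-11) with no overlap. Per kilobase of exon, YKT6 held 41.7% ± 0.57 of the group's summed level without and 45.1% ± 0.1 with salinomycin (SD, n = 3 each). GOSR1 (chr17:30477362-30527592, plus strand), the Qb-SNARE partner of BET1L and YKT6, went from 1054, 1084 and 1106 units to 3277, 3248 and 3121 units, a log2 change of 1.57 (SE 0.049, adjusted p = 5.13e-11). STX5 (chr11:62806897-62832088, minus strand) is the Qa-SNARE shared by both steps. It rose from 973, 956 and 839 units to 1902, 2003 and 2029 units, a smaller log2 change of 1.10 (SE 0.065, adjusted p = 1.14e-08). The groups did not overlap for either gene.

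BET1, the Qc-SNARE of the ER to Golgi step, rose from 435, 473 and 424 units to 650, 580 and 641 units (log2 change 0.49, adjusted p = 5.67e-05). STX18, the Qa-SNARE on the ER that receives vesicles returning from the Golgi, had 387, 362 and 399 units and rose to 463, 465 and 504 units (log2 change 0.32, adjusted p = 0.00158). These were the smallest rises in the group, and each still left the groups apart.

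Because these genes moved together, their promoters were read from the RefSeq promoter table (GRCh38.p14), which holds 44 of the 55 genes with 64 promoters among 35116 in all. The 11 without an entry include BET1L, CPLX1, SNAP25, STX17, SYT12, SYT13, SYT15B, SYT17, SYT7 and SYT8. The 250 bases before each start were searched on both strands for 5 motifs. These were TGACGTG, the core recognised by the ER stress factor ATF6, then CCACG, a piece of the ER stress element, and CACGTG, the E-box bound by TFEB and MYC. The others were TGACGTCA, the cyclic AMP response element, and CCAAT, bound by NF-Y. CCACG and the E-box overlap where a C precedes the E-box. The stretches below show 1 match in each of 5 genes of the group, in capitals, read 5′ to 3′ on the gene's strand, and YKT6 carries CCACG on the other strand as CGTGG. They lie at chr11:62832052-62832078 (STX5, minus strand), chr17:46922956-46922983 (GOSR2, plus), chr4:4542417-4542444 (STX18, minus), chr7:44200860-44200908 (YKT6, plus) and chr7:94004389-94004415 (BET1, minus).
STX5: ttacgtgtaggTGACGTGgccgcttcc
GOSR2: gccttgcccttCACGTGaagccgagcct
STX18: gggtcaccgtcCACGTGcctctatcctg
YKT6: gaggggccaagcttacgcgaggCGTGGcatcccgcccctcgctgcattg
BET1: ttcccagggctCCAATgagcgccgtgg

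CACGTG occurred in 3 of the 8 promoters of this group (GOSR2 and both STX18 promoters), or 37.5%, beside 14.1% of the 64 promoters and 6.34% of all promoters in the table. CCACG occurred in 62.5% of the 8, 43.8% of the 64 and 33.5% of all promoters. CCAAT stood at 37.5%, 23.4% and 32.0% in the same order. TGACGTG was found in STX5 alone among the 44 genes, or 1.56% of their promoters against 1.68% of all. Among the genes described, CACGTG stood in 13.8% of the 29 promoters of those that rose and in 12.5% of the 16 promoters of those that fell. The next 2 stretches show it in STX4, a syntaxin that rose (chr16:31033285-31033312, plus strand), and in STX6, a syntaxin that fell (chr1:181022999-181023026, minus strand).
STX4: accgggctggtCACGTGacgcggtgggg
STX6: tatgccctggtCACGTGagcggggtgcg

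A match of letters is a description and does not show that a factor binds there. The stretches lie before RefSeq starts, but those of STX5, STX4 and STX6 overlap GENCODE 29 exons of the same gene. The stretches of GOSR2 and STX18 overlap GENCODE 29 exons of another gene. The counts rest on 8 promoters of 6 genes in the ER-Golgi group.

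The SNAREs of the trans-Golgi network and endosomes did not move as a block. Of 9 genes 5 were higher and 4 were lower, beside 41.6% and 40.2% of all tested genes. The group's summed level was 7112 ± 92.3 units in untreated and 7008 ± 210 units in salinomycin libraries (SD, n = 3 each; two-sided exact permutation p = 0.5). STX6 (chr1:180972712-181023121, minus strand), a Qc-SNARE of traffic from endosomes to the trans-Golgi, was the only one of the 9 past 2-fold. It measured 761, 801 and 775 units in untreated and 358, 350 and 330 units in salinomycin libraries. The groups were well apart, and the log2 change was -1.17 (SE 0.066, adjusted p = 7.5e-09), or 2.25-fold lower. Its partners in the same step, STX16 and VTI1A, were higher. STX16, the Qa-SNARE and the most abundant of the 9 by mean units, went from 1342, 1452 and 1360 units to 2170, 1838 and 1744 units, with salinomycin 1 above the other two (log2 change 0.46, SE 0.076, adjusted p = 1.19e-04). VTI1A, the Qb-SNARE, went from 370, 377 and 404 units to 613, 565 and 622 units (log2 change 0.64, adjusted p = 3.75e-06).

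The late endosomal Q-SNAREs STX7, STX8 and VTI1B fell. STX7, the Qa-SNARE of late endosomes and lysosomes, dropped from 590 ± 22.4 to 361 ± 19.2 units (log2 change -0.71, adjusted p = 1.52e-06). STX8, its Qc partner, dropped from 856 ± 63.8 to 490 ± 24.4 units (log2 change -0.80, adjusted p = 5.81e-07). VTI1B, the Qb partner, had 1291, 1290 and 1299 units in untreated and 927, 928 and 936 units in salinomycin libraries (log2 change -0.47, adjusted p = 2.4e-06). VTI1B shares 904 exon bases, 15.6% of its exon length, with ARG2 on the opposite strand, whose log2 change was 5.94. The labels do not say whether counting used strand, so the 2 genes' reads cannot be told apart there. Among the remaining genes, STX17, the Qa-SNARE of autophagosomes, rose by 0.41 on the log2 scale (adjusted p = 1.29e-04). STX10 rose by 0.40 (adjusted p = 3.49e-04) and STX12 by 0.30 (adjusted p = 0.00256).

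**Figure D2:**
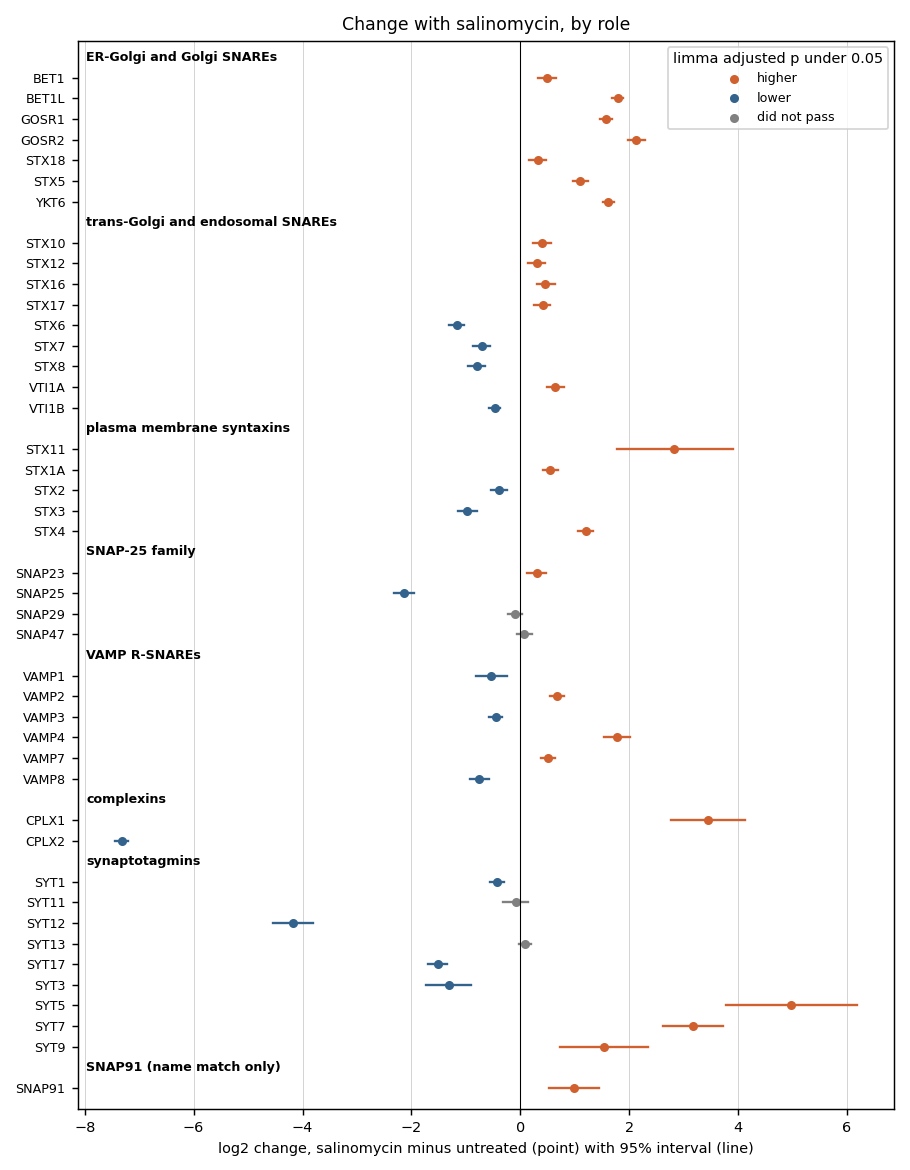
Log2 change with salinomycin for 43 tested genes (point) with its 95% interval (line), grouped by role and coloured by the limma call at an adjusted p under 0.05. The ER-Golgi group lies wholly to the right of 0, the trans-Golgi and endosomal group lies on both sides, and CPLX2 stands alone at -7.32.

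Grouped by the textbook complexes in which these proteins assemble, a grouping made after the values were seen, the early secretory sets rose as wholes. The 4 genes of the ER to Golgi set (STX5, GOSR2, BET1 and the R-SNARE SEC22B) were all higher, by 0.49 to 2.13 on the log2 scale. All 4 of the set within the Golgi (STX5, GOSR1, BET1L, YKT6) were higher by 1.10 to 1.79, and all 4 of the returning Golgi to ER set (STX18, BNIP1, USE1, SEC22B) by 0.32 to 1.46. In the late endosomal set, drawn with VAMP8 as its R-SNARE, all 4 genes (STX7, VTI1B, STX8, VAMP8) were lower, with log2 changes of -0.80 to -0.47. VAMP7, an R-SNARE of lysosome exocytosis, was placed in no set and was higher (log2 change 0.50). The set from endosomes to the trans-Golgi (STX16, VTI1A, STX6, VAMP4) had 3 higher and 1 lower, the autophagosome set (STX17, SNAP29, VAMP8) had 1 higher, 1 lower and 1 that did not pass, and the neuronal exocytosis set (STX1A, SNAP25, VAMP2) had 2 higher and 1 lower. STX5, SEC22B and VAMP8 each stand in 2 of these sets.

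At the cell surface the syntaxins changed in opposite directions. Of the 7 plasma membrane syntaxins 6 were tested, 4 of which were higher and 2 lower, beside 41.6% and 40.2% of all tested genes. The group's summed level was 3195 ± 113 units in untreated and 4521 ± 69.9 units in salinomycin libraries, 1.42-fold higher (SD, n = 3 each; two-sided exact permutation p = 0.1, the smallest possible). STX4 (chr16:31032889-31042975, plus strand), the broadly expressed Qa-SNARE of surface delivery, rose from 915, 946 and 827 units to 1978, 2056 and 2138 units with no overlap (log2 change 1.20, SE 0.062, adjusted p = 3.66e-09).

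STX1A, a Qa-SNARE of neurons, rose from 643 ± 28.8 to 943 ± 50.5 units (log2 change 0.55, adjusted p = 6.07e-06). It shares 662 exon bases, 17.9% of its exon length, with BUD23 on the opposite strand, whose log2 change was 1.02. STX3, a Qa-SNARE of apical delivery in epithelia, fell from 723, 847 and 728 units to 401, 403 and 367 units (log2 change -0.97, adjusted p = 2.23e-07). STX2 fell from 771 ± 4.77 to 586 ± 41.5 units (log2 change -0.40, adjusted p = 1.34e-04). STX11, a syntaxin best known from cytotoxic lymphocytes, reached the filter only with salinomycin. It had 8.65, 1.06 and 2.13 units in untreated and 24.1, 28.1 and 30.04 units in salinomycin libraries, a few reads in the former (log2 change 2.83, SE 0.486, adjusted p = 1.73e-04). Its fold was 7.13 with 1 added to each value and 3.07 with 8 added.

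Because of these opposite shifts, the mix of surface syntaxins changed. Per kilobase of exon, STX4 held 29.6% ± 1.17 of the group's summed level in untreated and 46.3% ± 1.75 in salinomycin libraries, while STX2 went from 27.9% to 14.4% and STX3 from 15.7% to 5.45%. STX1A held 23.5% and 23.4%. The shares of STX4 did not overlap between groups (28.3% to 30.5% against 44.3% to 47.4%; two-sided exact permutation p = 0.1, the smallest possible).

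Among the SNAP-25 family, which supply a Qb and a Qc helix in 1 protein, SNAP25 fell steeply and the others shifted little. SNAP25 (chr20:10218830-10307418, plus strand), the partner of STX1A and VAMP2 in neurons and neuroendocrine cells, measured 2062, 2183 and 2230 units in untreated and 556, 489 and 429 units in salinomycin libraries. Each salinomycin library was far under the lowest untreated one, a log2 change of -2.14 (SE 0.084, adjusted p = 3.38e-10) or 4.41-fold lower. SNAP23, its broadly expressed counterpart, rose from 679, 578 and 646 units to 801, 818 and 723 units (log2 change 0.30, adjusted p = 0.00306). SNAP29, the family member of autophagosome fusion, did not pass at 810 ± 26.8 and 761 ± 22 units (log2 change -0.09, 95% interval -0.22 to 0.04, adjusted p = 0.169). SNAP47 did not pass either, at 666 ± 30.1 and 701 ± 20.9 units (log2 change 0.07, 95% interval -0.06 to 0.21, adjusted p = 0.281). It shares 2323 exon bases, 35.3% of its exon length, with JMJD4 on the opposite strand, whose log2 change was 1.90. Both SNAP29 and SNAP47 changed sign with the choice of scaling.

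Per kilobase of exon, SNAP25 held 63.3% ± 1.41 of the family's summed level without and 27.1% ± 2.62 with salinomycin. It went from the leading member to about the same share as SNAP29, which held 16.1% ± 0.371 and then 28.5% ± 1.82, and SNAP23, which held 10.6% ± 0.937 and then 24.5% ± 0.986. The summed units of the family were 1.56-fold lower (4268 ± 125 against 2734 ± 64.7 units, SD, n = 3 each; two-sided exact permutation p = 0.1).

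**Figure D3:**
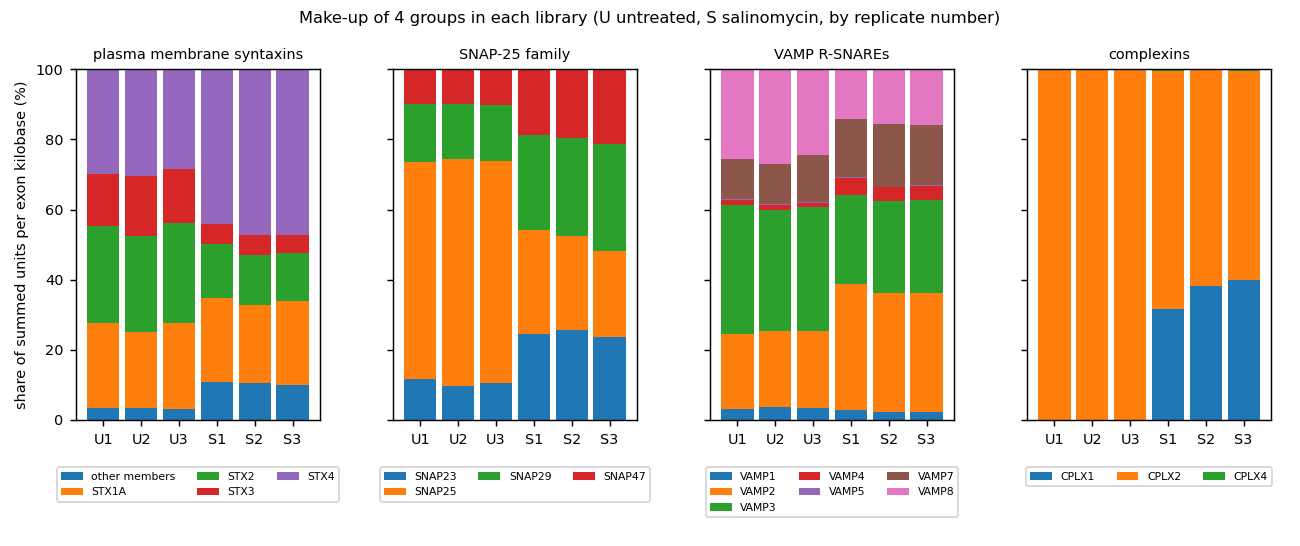
Stacked bars of each member's share (%) of its group's summed units per exon kilobase, 1 bar per library (U untreated, S salinomycin, by replicate number), for 4 groups, with the minor syntaxins joined as other members. STX4 grows from 29.6% to 46.3% of the surface syntaxins, SNAP25 shrinks from 63.3% to 27.1% of its family, and CPLX2 shrinks from nearly all to 63.1% of the complexins.

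Of the 6 tested VAMP R-SNAREs 3 were higher and 3 lower, beside 41.6% and 40.2% of all tested genes. The group's summed level was 1.13-fold higher (5892 ± 252 against 6630 ± 270 units, SD, n = 3 each; two-sided exact permutation p = 0.1). VAMP4 (chr1:171700160-171742247, minus strand), the R-SNARE of the trans-Golgi network, showed the largest change. It measured 156, 159 and 141 units in untreated and 617, 464 and 492 units in salinomycin libraries, with salinomycin 1 the highest and no overlap (log2 change 1.77, SE 0.11, adjusted p = 1.86e-08). VAMP2, the R-SNARE of synaptic and secretory vesicles, rose from 1714, 1768 and 1616 units to 2899, 2608 and 2636 units (log2 change 0.67, SE 0.058, adjusted p = 3.73e-07). VAMP7, an R-SNARE of lysosome exocytosis, rose from 771 ± 31.5 to 1093 ± 13.9 units (log2 change 0.50, adjusted p = 3.86e-06).

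VAMP8, the R-SNARE of late endosomes, autophagosomes and exocrine granules, fell from 621, 668 and 546 units to 348, 364 and 374 units (log2 change -0.75, adjusted p = 3.44e-06). VAMP3 (cellubrevin), the R-SNARE of recycling endosomes, fell from 2358 ± 139 to 1728 ± 23.3 units (log2 change -0.45, adjusted p = 8.93e-06). VAMP1 fell from 276, 330 and 282 units to 256, 182 and 183 units, with salinomycin 1 close to the untreated range (log2 change -0.53, adjusted p = 0.00296). VAMP1 shares 339 exon bases, 9.47% of its exon length, with TAPBPL on the opposite strand, whose log2 change was -0.99. Per kilobase of exon, VAMP3 led the VAMP genes in untreated libraries (35.6% ± 1.13 against 21.7% ± 0.203 for VAMP2). With salinomycin VAMP2 led them (34.7% ± 1.12 against 26.2% ± 0.647 for VAMP3). YKT6, an R-SNARE counted with the ER-Golgi group, had 786 units per kilobase in untreated and 2408 in salinomycin libraries. VAMP3 had 854 and 626, and VAMP2 had 520 and 831.

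The complexins gave the largest change of all the genes described. CPLX2 (chr5:175796310-175884020, plus strand), a complexin of neurons and endocrine and mast cells, measured 33626, 31889 and 32749 units in untreated and 216, 197 and 198 units in salinomycin libraries. It took 0.184% to 0.191% of all units in untreated and 0.00128% to 0.00143% in salinomycin libraries. Its untreated level ranked 45 among all genes in units, and its fall ranked 2 among all tested genes. The fall was 160-fold, a log2 change of -7.32 (SE 0.052, adjusted p = 1.25e-15), and 155-fold with 8 in place of 1 added to each value. Per kilobase of exon the level went from 4614 to 28.7 units.

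CPLX1 (chr4:784957-826198, minus strand), the main complexin of fast synaptic release, moved the other way from a level of a few reads. It had 4.32, 2.13 and 2.13 units in untreated and 34.3, 41.3 and 45.1 units in salinomycin libraries, and reached the filter only in the latter (log2 change 3.45, SE 0.31, adjusted p = 5.64e-07). The fold was 11.0 with 1 and 4.44 with 8 added to each value. Per kilobase, CPLX1 held 36.5% ± 4.33 of the complexin level with salinomycin, when CPLX2 held 63.1% ± 4.22. Both were then low, at 16.6 and 28.7 units per kilobase. Summed complexin units were 134-fold lower (32758 ± 868 against 244 ± 6.38 units, SD, n = 3 each; two-sided exact permutation p = 0.1), which rests on CPLX2.

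Of the 17 synaptotagmins 9 were tested, 3 of which were higher, 4 lower and 2 not past the threshold. All 3 that were higher were kept by the filter through their salinomycin libraries, and SYT7 also reached it in 1 untreated library. SYT13, a synaptotagmin that does not bind calcium, was the most abundant in both groups, at 3593, 3259 and 3523 units in untreated and 3631, 3761 and 3611 units in salinomycin libraries. The change was too small to pass (log2 change 0.09, 95% interval -0.03 to 0.20, adjusted p = 0.141) and its sign depended on the scaling. Per kilobase SYT13 held 62.0% ± 1.2 and 72.0% ± 0.185 of the synaptotagmin level. SYT1, the calcium sensor of fast release, fell from 1412 ± 80.3 to 1050 ± 39.7 units (log2 change -0.43, adjusted p = 3.05e-05). SYT11, another that does not bind calcium, did not pass at 121 ± 6.5 and 114 ± 3.07 units (log2 change -0.08, 95% interval -0.32 to 0.15, adjusted p = 0.486).

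SYT12 (chr11:67006778-67050863, plus strand), which lacks calcium binding as well, had the largest fall of the family. It measured 307, 242 and 315 units in untreated and 15.7, 16.9 and 12.2 units in salinomycin libraries. The groups were far apart, with a log2 change of -4.18 (SE 0.169, adjusted p = 4.24e-10) that is 18.1-fold with 1 and 12.9-fold with 8 added to each value. SYT17 (chr16:19167971-19268334, plus strand) fell from 751, 693 and 743 units to 248, 237 and 276 units (log2 change -1.52, SE 0.078, adjusted p = 3.49e-09). SYT3, a calcium sensor of high affinity, fell from 85.4, 59.6 and 65.1 units to 25.0, 25.3 and 31.9 units (log2 change -1.31, SE 0.191, adjusted p = 4.32e-05). For both, every salinomycin library lay below every untreated one.

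SYT5, SYT7 and SYT9 rose from near the floor. SYT5 (chr19:55171199-55180441, minus strand), a calcium sensor of dense-core vesicles, had 0, 4.26 and 5.34 units in untreated and 98.1, 92.8 and 112 units in salinomycin libraries (log2 change 4.98, SE 0.552, adjusted p = 3.87e-06). The fold depends on the value added, 31.6 with 1 and 9.93 with 8. SYT7 (chr11:61515313-61581148, minus strand), the sensor of lysosome exocytosis and slow release, went from 6.49, 12.8 and 7.47 units to 82.4, 96.6 and 77.9 units (log2 change 3.17, SE 0.25, adjusted p = 1.66e-07). Its fold was 9.03 with 1 and 5.59 with 8 added. SYT9, a sensor of fast release in some neurons, went from 4.32, 5.32 and 2.13 units to 11.1, 13.1 and 14.1 units (log2 change 1.54, SE 0.366, adjusted p = 0.00203). With 8 added its fold fell from 2.90 to 1.75. Even with salinomycin, SYT5, SYT7 and SYT9 had 18.9, 14.4 and 2.70 units per kilobase, against 676 for SYT13 and 162 for SYT1.

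11 genes stayed below the filter: CPLX4, STX19, SYT14, SYT15, SYT15B, SYT16, SYT2, SYT4, SYT6, SYT8 and VAMP5. Their highest group mean was 12.1 units, that of SYT16 in untreated libraries. SYT15 and SYT15B are near-identical copies, so their separate values are uncertain. Just inside the filter, SYT9 had deposited values less 1 of 4, 5 and 2 in untreated and 12, 14 and 15 in salinomycin libraries. Just outside it, SYT16 had 6, 15 and 13 and then 2, 2 and 1, and SYT6 had 11, 15 and 7 and then 2, 4 and 3. Both genes outside the filter were thus lower with salinomycin by value, and the filter left out genes of that kind. SNAP91, whose symbol fits the rule, is a clathrin adaptor of endocytosis and no SNARE. It stood at 33.5, 43.6 and 24.5 units in untreated and 71.3, 60.9 and 66.7 units in salinomycin libraries (log2 change 0.98, SE 0.207, adjusted p = 8.65e-04).

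Of 76 further genes of the fusion pathway that the symbol rule does not take in, 72 were tested, 41 of which were higher and 20 lower, with a median log2 change of 0.28. SYTL1, RIMS1, RPH3A and CADPS2 among them reached the filter in all 3 salinomycin libraries but not in all 3 untreated ones. Over the 68 genes at the filter in all 6 libraries, 37 were higher, 20 were lower and the median was 0.27. Over all tested genes 41.6% were higher and 40.2% lower, or 81.9% in either direction. The counts of the lists below are to be read beside those shares. The SNAREs with other symbols, SEC22B, USE1 and BNIP1, were listed with the SEC22 family proteins SEC22A and SEC22C. Of these 5 genes 4 were higher and 1, SEC22C, was lower (log2 change -0.33). BNIP1, a SNARE of the ER, rose from 150 to 413 units on average (log2 change 1.46, adjusted p = 5.7e-08), and SEC22A, a SEC22 family protein of the ER, from 225 to 615 units (1.45, adjusted p = 2.26e-09). SEC22A shares 490 of its 4698 exon bases with PDIA5 on the same strand, where the reads of both genes cannot be told apart. Of the disassembly proteins 2 of 4 were higher. NAPA (alpha-SNAP), the adaptor that recruits NSF, rose from 1033 to 3216 units (1.64, adjusted p = 9.17e-11) and NAPG from 287 to 566 units (0.98, adjusted p = 1.03e-07). NSF itself, the ATPase, had 1153 and 1168 units and did not pass (0.02, adjusted p = 0.778).

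Among 8 Sec1/Munc18 proteins 5 were higher and 2 lower. SCFD2, a relative of the STX5 partner SCFD1, rose from 249, 235 and 225 units to 1416, 1404 and 1456 units (log2 change 2.59, adjusted p = 9.96e-12), and VPS33A, of the HOPS tether, from 392 to 775 units (0.98, adjusted p = 2.02e-08). The 2 lower calls, STXBP2 (-0.50, adjusted p = 0.0473) and VPS33B (-0.32, adjusted p = 0.049), lie at the edge of the threshold. Of 5 other tested syntaxin-binding proteins 1 was higher and 3 lower, led by STXBP6 (amisyn) at 55.7 and 19.6 units (-1.47, adjusted p = 3.77e-05) and SNAPIN, which binds SNAP25, at 636 and 390 units (-0.71, adjusted p = 1.07e-05).

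Most subunits of the Golgi tethers were higher, and those of the surface were mixed. Of 8 COG subunits, which tether vesicles within the Golgi, 7 were higher and 0 lower, with a median of 0.89, and COG4 did not pass (-0.12, adjusted p = 0.0637). COG6 rose from 363 to 1639 units (log2 change 2.17, adjusted p = 2.19e-11) and COG1 from 985 to 3602 units (1.87, adjusted p = 3.75e-11). Of the 5 GARP and EARP subunits, which tether at the trans-Golgi and recycling endosomes, 4 were higher, led by VPS53 (1766 to 5750 units, 1.70, adjusted p = 3.75e-11) and VPS51 (467 to 1245 units, 1.42, adjusted p = 1.03e-08). All 3 subunits of the NRZ tether of the ER were higher, with RINT1 at 1.61 (adjusted p = 5.11e-10) and ZW10 at 1.20 (adjusted p = 4.07e-08). The 9 exocyst genes had 4 higher and 4 lower. EXOC6B fell from 2074 to 933 units (-1.15, adjusted p = 8.18e-10) and EXOC8 rose from 436 to 810 units (0.89, adjusted p = 4.35e-07). HOPS and CORVET, of late and early endosomes, had 2 higher and 3 lower of 7, with TGFBRAP1 at -0.92 (adjusted p = 1.23e-07) and VPS41 at -0.67 (adjusted p = 3.55e-07).

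Other calcium and priming factors went in both directions, with 9 higher and 7 lower of 18 tested. Over the 14 of them at the filter in all 6 libraries, 5 were higher and 7 lower. CADPS2, which primes dense-core vesicles, measured 10.8, 9.58 and 10.7 units in untreated and 359, 389 and 365 units in salinomycin libraries (log2 change 5.04, SE 0.137, adjusted p = 2e-11). It reached the filter in 2 untreated and all 3 salinomycin libraries, with untreated values close to the filter. Its fold was 32.8 with 1 and 20.7 with 8 added. UNC13A (Munc13-1), which opens syntaxin 1 for assembly, went from 80.0, 119 and 93.9 units to 2929, 2786 and 2548 units (log2 change 4.82, SE 0.121, adjusted p = 1.03e-11). UNC13A was at the filter in all 6 libraries, and its salinomycin libraries lay far above the untreated ones, whereas those of CPLX2 and SNAP25 lay far below.

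**Figure D4:**
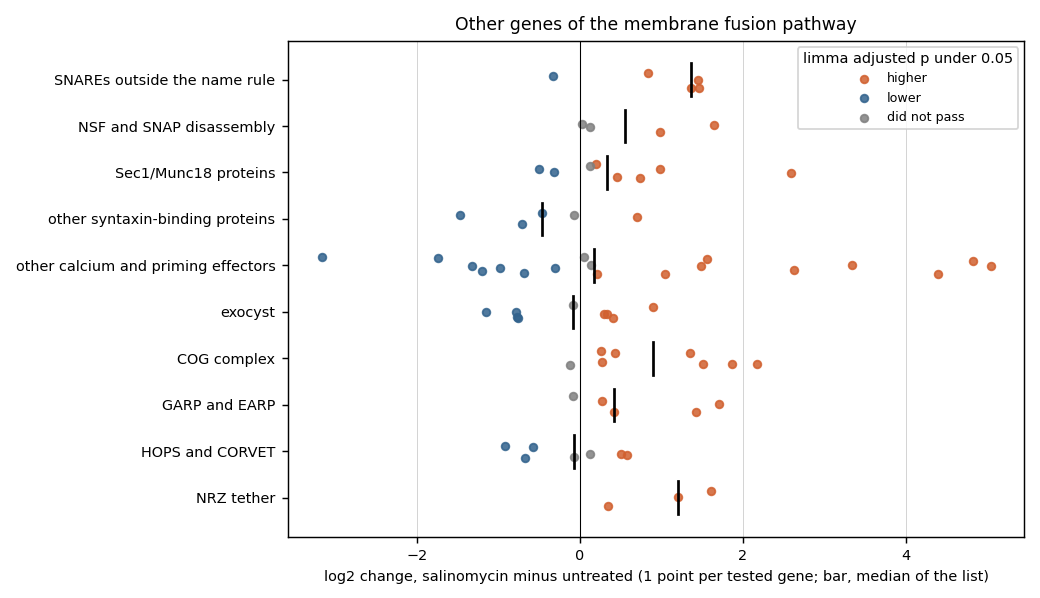
Log2 change with salinomycin for 72 tested genes of the fusion pathway outside the symbol rule, 1 point per gene in 10 lists, coloured by the limma call, with a bar at each list's median. COG has 7 of 8 genes higher and 1 at -0.12, NRZ has 3 of 3 higher, and the calcium and priming factors spread from -3.17 to 5.04.

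Several of the genes above are best known from neurons and neuroendocrine cells, so a list of 20 neuroendocrine and neuronal markers was measured beside them. Of these 18 were in the table and 13 were tested, with 4 higher and 7 lower. Over the 8 at the filter in all 6 libraries, 3 were higher and 4 lower, since SYN1 passed through salinomycin and CHGA, NCAM1 and BSN through untreated libraries. Among those 8, the 3 higher were SYP (18.9 and 394 units on average), RAB3A (47.8 and 291) and PCLO (89.1 and 589). The 4 lower were UCHL1, CHGB (660 and 106), SCG2 (178 and 23.0) and TUBB3 (62.4 and 33.9). The summed level of the 18 genes was 16085 to 17822 units in untreated and 9049 to 9337 units in salinomycin libraries. Most of that sum was UCHL1 (13535 and 5029 units on average). The lineage factor NEUROD1 was at or near 0 in both groups, with at most 0.313 units on average. The summed leukocyte markers were 193 to 226 units and 47.8 to 72.3 units. That fall was CD14 (201 and 30.2 units on average), while LYZ was called higher from 6.40 to 19.6 units, through its salinomycin libraries, and CD68 had 2.15 and 9.34 units below the filter. The summed fibroblast markers were 584 to 817 and 419 to 460 units, and the endothelial markers 9.60 to 15.1 and 2.82 to 10.2 units. The part of any of these lists in the results was not tested.

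In the authors' deposited table, which scales the libraries in its own way, 27 of the 55 genes were higher at an adjusted p under 0.05, 18 were lower, 5 did not pass and 5 had no adjusted p. Over all genes with an adjusted p in the authors' deposited table, 41.9% were higher and 28.1% lower. The call was the same for 42 of the 44 genes tested above, and none was called in opposite directions. The exceptions were SNAP47 (log2 fold change 0.27, adjusted p = 0.00276) and SYT13 (0.28, adjusted p = 1.28e-05), higher in the authors' deposited table and not past the threshold here. Of 21624 gene sets scored in the authors' deposited table of gene sets, 32 have names that speak of SNAREs, exocytosis, synaptic vesicles or vesicle fusion. Of those 0 reached an adjusted p under 0.05 and 3 an unadjusted p under 0.05, against 17.8% of all sets at the adjusted threshold. The KEGG set of SNARE interactions had a normalised enrichment score of 1.473 (adjusted p = 0.137) in the authors' deposited table.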

How the data were processed

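Gene-level RNA-seq values of 6 libraries were used, 3 per group. The samples were named biological replicates in the labels. Each limma p-value sets the difference between groups against the spread between those replicates, with variances drawn together over all tested genes. That spread is between A549 cultures only. Per the submitters' processing notes the build was GRCh38; an aligner, counter or annotation is not given in the sources used here. Judged from the values, the authors' signal column for each library is rescaled and rounded with 1 added, so depth was estimated from rounding steps. Per the file headers, the authors also deposited log2 fold changes, log10 means, a linear fold ratio, a test score and p-values per gene, and scores and p-values per gene set.

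After 1 was taken off each value, libraries were scaled by trimmed-mean factors (30% and 5% trimming), between 0.925 and 0.94 for untreated and between 1.07 and 1.08 for salinomycin libraries. Log2 of units plus 1 was tested with limma 3.58.1 in R 4.3.3, with a trend of variance on the mean and adjustment after Benjamini and Hochberg. The filter set aside 3582 genes. The fit was run on simulated data in which few genes changed. That run cannot check the scaling where most genes change, as here. Exon lengths and extents are those of GENCODE 29, 1-based. Members and lists were chosen with earlier results of these data known. Full statistics are given for members called at 2-fold or more without overlap, for the most abundant member of each group and for the 2 largest called changes of each further list; SNAP91 stood alone in its group. NSF, STXBP2, VPS33B, COG4 and single markers were named after their values were seen, as were overlapping partners. Some genes that this rule would name are not reported here; counts and sums include them. Alternatives were other scalings, filters and pseudocounts, limma-voom, the replicate block and leaving out each library.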

Additional observations from a re-analysis of the deposited data

How the results depend on the processing

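Median-of-ratios factors, pseudocounts of 0.5 and 8, limma-voom and leaving out any untreated library changed no member's call, and no called member lost its call or direction under any alternative in which it was tested. The median of 0.36 became 0.55 with library-size scaling, 0.27 with upper-quartile scaling, 0.25 with no filter and 0.30 at a filter of 50. It ranged from 0.25 to 0.35 leaving out 1 library. The median over all tested genes moved with the scaling too, from 0.02 to 0.21 with library-size and to -0.06 with upper-quartile scaling. Library-size scaling gave 2 higher SNAP-25 family genes, and 0 lower among the SNAREs and SEC22 family genes with other symbols. It also gave 4 higher disassembly genes and 0 lower Sec1/Munc18 genes. Its log2 changes were 0.10 for SNAP29, 0.11 for SYT11 and 0.17 for the trans-Golgi and endosomal sum. Upper-quartile scaling gave 2 lower SNAP-25 family genes, 1 lower COG gene, and -0.01 for SNAP47 and -0.00051 for SYT13. None of these 4 genes passed in the main analysis. With no filter, 9 synaptotagmins and 0 Sec1/Munc18 genes were lower, and at a filter of 50, 0 complexins were higher. Leaving out any salinomycin library left CPLX1, STX11, SYT5 and SYT9 below the filter, so that 0 complexins and 1 synaptotagmin were higher, against 1 and 3. Lower Sec1/Munc18 calls ranged from 0 to 1 and lower COG calls from 0 to 1 leaving out 1 library, and limma-voom gave 1 lower Sec1/Munc18 gene. Beyond the filter, the cause of these shifts was not tested.

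The labels number replicates in both groups, but same-numbered libraries did not deviate together (r = -0.172, -0.0131 and -0.0326), so the numbers do not pair them. With the replicate block 25 members were higher and 15 lower with a median of 0.36, and 1 Sec1/Munc18 gene was lower. Depth limits the low genes, above all CPLX1, STX11, SYT5 and SYT9 in untreated libraries, whose folds depend on the value added.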
